A study of Homo sapiens with 8 samples.

Results

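The 90 probes described here were dark in DLD1 cells under every other condition and bright only when depletion of UHRF1 was combined with TSA. They were selected on their measured values: a probe was taken if its processed signal was 25 or more on both arrays of UHRF1 depletion plus TSA and under 10 on each of the 6 other arrays. Of the 50599 probes measured, 90 met this rule, and they stood for 87 of 36603 gene names. Because the rule used these signals, the signals of the members are given as a description, without a test.

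RNA was taken from DLD1, an established colorectal cancer cell line, and measured on 8 single-colour arrays in 4 groups of 2. Cells received a control siRNA (siCONT) or an siRNA against UHRF1 for 48 h, and then 300 nM trichostatin A (TSA) or its solvent ethanol (mock) for 24 h. The groups were thus siCONT + mock, siUHRF1 + mock, siCONT + TSA and siUHRF1 + TSA, the last of which is called the combination below. In each UHRF1 depletion group, the first array carried siUHRF1-1 and the second siUHRF1-2, so these arrays differed by siRNA. The siCONT arrays were labelled as replicates, but nothing in the labels or methods says that they came from separate cultures. Their spread may therefore be technical alone. The tests pooled the spread of all 4 groups, so p-values mix it with the difference between the siRNAs. The groups are transient treatments of a single cell line.

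UHRF1 recognizes hemimethylated DNA behind the replication fork and brings the maintenance methyltransferase DNMT1 to it, so that DNA methylation patterns are copied to daughter strands. TSA inhibits histone deacetylases, enzymes that remove acetyl groups from histone tails and are part of many repressor complexes. Silent genes in cancer cells can carry both DNA methylation and deacetylated histones, and germline genes and genes of other tissues are commonly kept off in this way.

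The processed signal is the brightness of a spot after subtraction of background, and it was not scaled between arrays. The smallest signal of any probe called well above background lay between 12.2 and 14.0 on the 8 arrays, so the limit of 10 lies below detection and the limit of 25 lies a little above it. The 75th percentile of all signals lay between 137 and 189, and between 43.3% and 48.0% of probes were well above background. All arrays were on 1 slide, with mock in the first row and TSA in the second, so TSA and slide row cannot be told apart. Both siCONT groups were in columns 1 and 2 and both siUHRF1 groups in columns 3 and 4. UHRF1 depletion and slide column therefore cannot be told apart either, nor can the combination and its place on the slide. UHRF1 gave a signal of 541 and 575 with siCONT + mock, 240 and 148 with siUHRF1 + mock, 346 and 340 with siCONT + TSA and 51.0 and 37.0 with the combination. UHRF1 was therefore lowest where the members were lit. All 9 colon epithelial genes examined, among them EPCAM, CDX2 and KRT20, were well above background on all arrays, whereas the leukocyte markers PTPRC and CD3E had signals of at most 18.1.

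Some genes that mark other tissues were nevertheless detected, in differing patterns. One probe of HBB, a globin gene, gave 114 and 112 with siCONT + TSA and 529 and 608 with the combination, against at most 6.15 under mock, while its other probe stayed at 4.98 or less on all arrays. COL1A1, a fibroblast collagen, gave 50.3 and 48.1, then 72.3 and 135, against at most 8.09 under mock, while COL1A2 was dark on all arrays (at most 3.39). One probe of VWF, an endothelial gene, gave 73.7 and 35.6 with siUHRF1 + mock, 129 and 131 with siCONT + TSA and 221 and 225 with the combination. PDGFRB, a receptor of fibroblasts and pericytes, gave 28.4 and 28.3 with siUHRF1 + mock and only 7.92 and 10.1 with the combination. Among 4 fibroblast genes examined none was on all 8 arrays, nor was any of 3 endothelial genes, and CD79A, a B cell gene, was bright on every array (935 to 1376). The part of such cells in the member signals was not tested, and more cells expressing a gene cannot be told apart from more RNA per cell in bulk RNA.

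The sequences below show what the members have in their promoters. UCHL1, DKK1 and DDX43 are shown because their promoters are dense in CpG, the dinucleotide that is methylated, and SPANXA1 and ITLN2 because theirs are poor in it. Each is the RefSeq sequence (GRCh38.p14) from 250 bases before to 50 bases after the start of the gene, 5′ to 3′ on the strand of the gene, with every CG in capitals.
UCHL1, chr4:41256678-41256977, plus strand: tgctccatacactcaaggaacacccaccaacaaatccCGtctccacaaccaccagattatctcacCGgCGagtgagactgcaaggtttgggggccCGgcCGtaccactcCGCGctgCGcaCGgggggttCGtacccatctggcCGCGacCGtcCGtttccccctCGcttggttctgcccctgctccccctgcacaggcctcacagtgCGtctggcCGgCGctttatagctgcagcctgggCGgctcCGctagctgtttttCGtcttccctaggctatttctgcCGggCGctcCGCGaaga
DKK1, chr10:52314031-52314330, plus strand: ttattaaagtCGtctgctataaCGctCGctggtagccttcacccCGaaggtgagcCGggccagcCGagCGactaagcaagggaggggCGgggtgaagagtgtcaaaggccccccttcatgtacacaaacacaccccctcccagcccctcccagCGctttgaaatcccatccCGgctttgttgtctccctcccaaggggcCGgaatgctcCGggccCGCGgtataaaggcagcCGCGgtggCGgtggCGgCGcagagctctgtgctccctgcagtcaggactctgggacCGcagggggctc
DDX43, chr6:73394578-73394877, plus strand: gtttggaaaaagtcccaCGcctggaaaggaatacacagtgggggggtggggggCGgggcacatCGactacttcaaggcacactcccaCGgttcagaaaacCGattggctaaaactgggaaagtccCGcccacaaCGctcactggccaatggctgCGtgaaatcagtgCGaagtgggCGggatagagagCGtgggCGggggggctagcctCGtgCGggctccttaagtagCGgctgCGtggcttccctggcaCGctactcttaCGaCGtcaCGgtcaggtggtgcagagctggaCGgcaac
SPANXA1, chrX:141584689-141584988, minus strand: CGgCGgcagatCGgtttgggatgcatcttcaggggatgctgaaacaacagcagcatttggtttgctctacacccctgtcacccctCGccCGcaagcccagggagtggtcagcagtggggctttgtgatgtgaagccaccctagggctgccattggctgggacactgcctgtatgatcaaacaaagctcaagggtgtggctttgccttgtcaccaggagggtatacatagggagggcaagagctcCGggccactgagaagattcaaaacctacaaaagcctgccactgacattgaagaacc
ITLN2, chr1:160954760-160955059, minus strand: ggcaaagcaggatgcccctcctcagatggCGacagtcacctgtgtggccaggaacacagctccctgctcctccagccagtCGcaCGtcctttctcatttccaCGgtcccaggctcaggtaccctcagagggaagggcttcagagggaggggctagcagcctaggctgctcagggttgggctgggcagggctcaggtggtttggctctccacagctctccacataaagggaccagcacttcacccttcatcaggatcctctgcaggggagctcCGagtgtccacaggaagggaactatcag
These promoters hold 25, 20, 21, 6 and 5 CG dinucleotides in the order shown. Their ratios of observed to expected CpG are 0.87, 0.66, 0.78, 0.26 and 0.18. The array design places the SPANXA1 probe on the plus strand of chromosome X, whereas the SPANXA1 promoter shown lies on the minus strand. Whether this promoter belongs to the transcript measured was not examined.

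Both of the next sequences are array probes of members not matched to a protein-coding gene, shown because they identify what was measured. The first was the member with the highest signal on its dimmer combination array and is known only by the cDNA name BX648590. The second reads ECEL1P2, a pseudogene. Coordinates are those of the array design (hg19), and CG is again in capitals.
BX648590, chrX:28520064-28520123, minus strand: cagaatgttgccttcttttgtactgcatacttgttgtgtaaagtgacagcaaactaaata
ECEL1P2, chr2:233250482-233250541, minus strand: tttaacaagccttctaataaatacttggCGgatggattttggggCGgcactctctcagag
Each probe is 60 bases long. The BX648590 probe contains no CG and the ECEL1P2 probe contains 2.

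Few or no probes met the same rule for another group. The same limits applied to the other groups gave 0 probes lit only on both siCONT + mock arrays, 7 only on both siUHRF1 + mock arrays and 3 only on both siCONT + TSA arrays. The opposite pattern, 25 or more on the 6 other arrays and under 10 on both combination arrays, was met by 0 probes. Single arrays on their own lit between 32 and 83 probes, 63 with siUHRF1-1 + TSA and 83 with siUHRF1-2 + TSA, so signals on 1 array alone were found in every group. Of 20457 probes that were under 10 on the 6 other arrays, 330 reached 25 on at least 1 combination array and 90 (0.440%) on both. These are counts by the selecting rule and were not tested. A probe lit by TSA or by UHRF1 depletion alone that stays lit in the combination fails the rule for every group. The counts of the groups are therefore not on an equal footing, and a low count for a single agent was favoured.

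**Figure D1:**
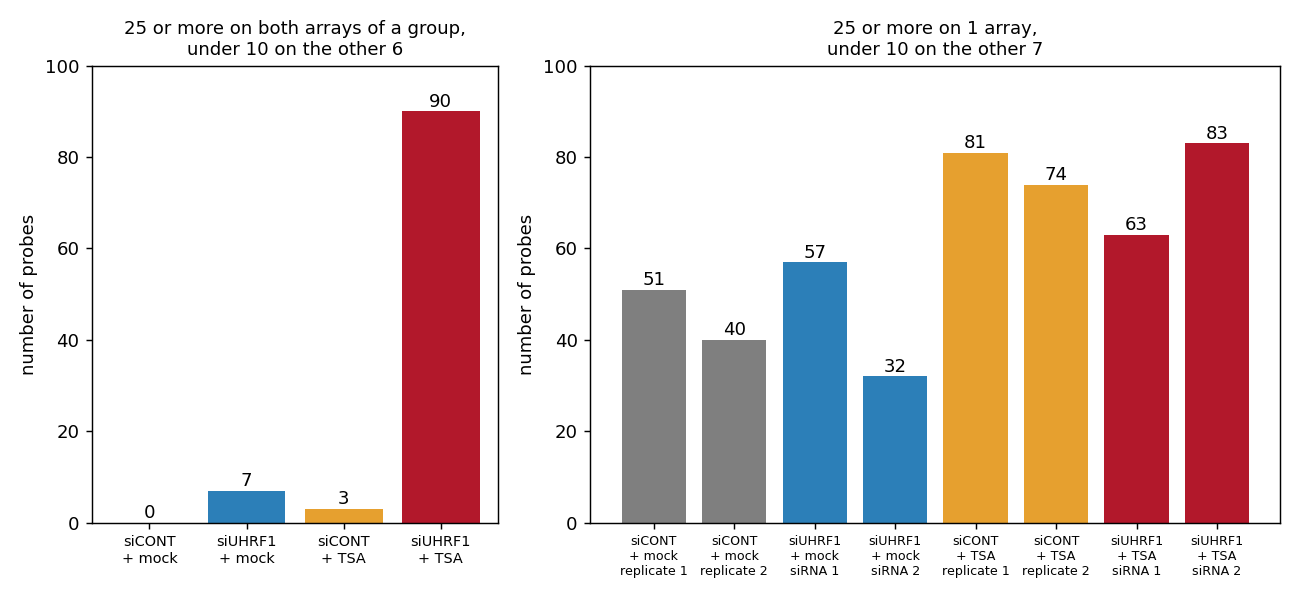
Number of probes (vertical axis) with a signal of 25 or more on both arrays of 1 group and under 10 on the other 6 (left), and with 25 or more on a single array and under 10 on the other 7 (right). The combination holds 90 probes on the left, against 0, 7 and 3 in the other groups, whereas counts for single arrays on the right lie between 32 and 83.

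Most members were dim. The median of the lower combination signal was 34.1, 70 members had a lower signal under 50, and 7 had 100 or more on both arrays. All 90 were well above background on both combination arrays, and none was on any other array. The feature extraction gives a small surrogate value to a spot whose signal cannot be told from background, and 13 members held such a value on all 6 other arrays. The number of members above the surrogate was 23 and 13 of 90 with siCONT + mock, 39 and 29 with siUHRF1 + mock and 58 and 57 with siCONT + TSA. Among all probes under 10 on these arrays, 27.6% to 34.2% were above it. The median member signal was accordingly 3.41 and 3.27 with siCONT + mock, 3.66 and 3.47 with siUHRF1 + mock and 4.65 and 4.63 with siCONT + TSA, all below the detection level. With the combination it was 40.1 and 40.5.

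**Figure D2:**
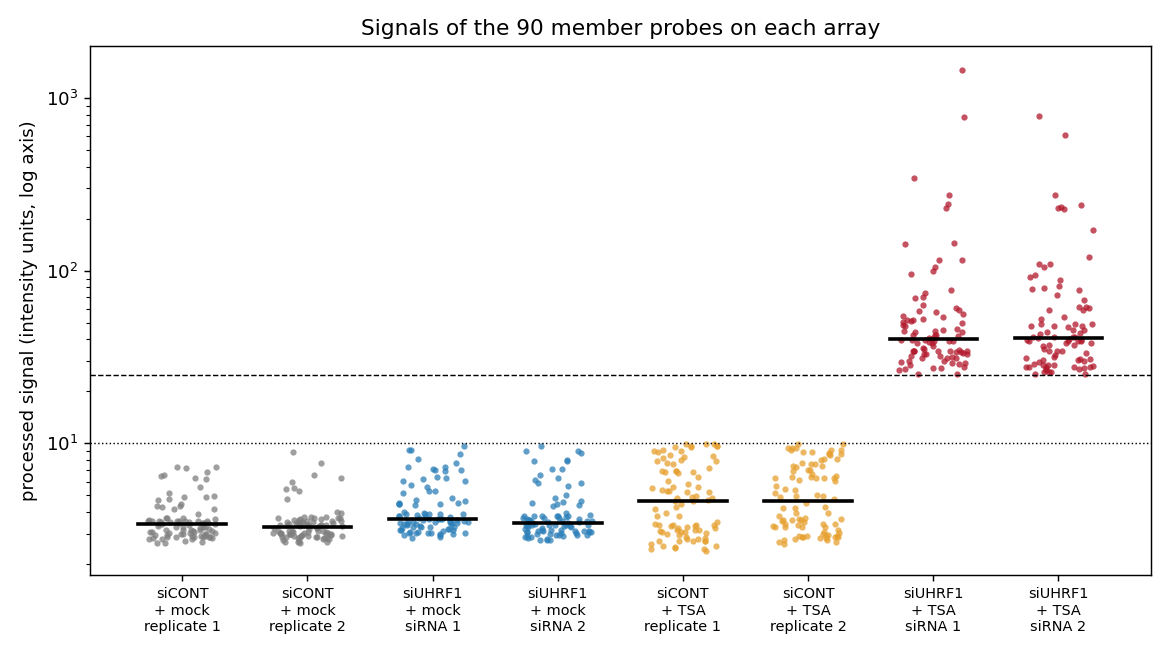
Processed signal (log axis) of each of the 90 members on each of the 8 arrays, 1 point a probe, with the median as a black bar, the limit of 25 dashed and the limit of 10 dotted. The combination arrays have medians of 40.1 and 40.5, and the siCONT + TSA arrays (4.65 and 4.63) lie a little above both mock groups.

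The size of the difference is a lower bound, since the members were not above background outside the combination. The lower bound set the mean scaled signal of the combination against the lowest scaled signal detected on the dim arrays. Over siCONT + mock the bounds ran from 1.76 to 63.3 with a median of 2.77, over siUHRF1 + mock from 2.03 to 72.8 with a median of 3.19, and over siCONT + TSA from 2.23 to 80.2 with a median of 3.52. The highest bound of each set belonged to SPANXA1.

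Several members are genes normally expressed in germ cells or early embryos. SPANXA1, a sperm protein associated with the nucleus and a cancer-testis gene of the X chromosome, had signals of 4.98 and 2.67 with siCONT + mock, 3.88 and 2.75 with siUHRF1 + mock, 5.49 and 8.08 with siCONT + TSA and 1451 and 608 with siUHRF1 + TSA. It was at least 63.3-fold higher in the combination than in siCONT + mock, and its near-identical family members may share its probe. CT45A1, another X-linked cancer-testis gene, had 5.17 and 2.80 with siCONT + mock, 4.48 and 2.89 with siUHRF1 + mock, 9.92 and 9.36 with siCONT + TSA and 58.2 and 54.1 with siUHRF1 + TSA. Its siCONT + TSA signals lay just under the limit. IL13RA2, a decoy receptor for interleukin 13 that is also a cancer-testis antigen, had 3.14 and 3.11 with siCONT + mock, 3.27 and 3.29 with siUHRF1 + mock, 9.96 and 8.11 with siCONT + TSA and 50.1 and 61.4 with siUHRF1 + TSA. DDX43, a DEAD-box RNA helicase of germ cells, had 3.87 and 3.01 with siCONT + mock, 3.18 and 3.12 with siUHRF1 + mock, 4.43 and 2.91 with siCONT + TSA and 51.6 and 43.7 with siUHRF1 + TSA. Its signals outside the combination were all below 5. PRAME, a repressor of retinoic acid receptor signalling expressed in testis and many tumours, had 35.1 and 37.0 in the combination, and SPANXN4, a relative of SPANXA1, had 31.2 and 31.4. These 6 genes are the members in a list of 136 cancer-testis genes. DPPA2, a pluripotency gene of early embryos and germ cells and the only member in a list of 69 meiosis and piRNA genes, had 34.0 and 39.0. ZFP42, also called REX1 and known as a pluripotency marker, had 3.17 and 3.12 with siCONT + mock, 3.28 and 4.84 with siUHRF1 + mock, 9.50 and 3.07 with siCONT + TSA and 116 and 77.1 with siUHRF1 + TSA. KHDC1, an oocyte and early embryo gene, had 69.8 and 29.7, and FAM9B, an X-linked testis gene, had 30.0 and 25.8.

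UCHL1 and DKK1 were the members in a list of 83 genes known to be methylated in colorectal cancer. UCHL1, a neuronal ubiquitin hydrolase, had 2.65 and 2.66 with siCONT + mock, 2.82 and 2.75 with siUHRF1 + mock, 2.39 and 2.61 with siCONT + TSA and 243 and 232 with siUHRF1 + TSA. All its signals outside the combination were surrogate values, and the combination was at least 16-fold higher than siCONT + mock. DKK1, a secreted antagonist of Wnt signalling, had 7.16 and 3.45 with siCONT + mock, 3.61 and 3.54 with siUHRF1 + mock, 3.82 and 3.34 with siCONT + TSA and 346 and 91.4 with siUHRF1 + TSA. It was brighter with siUHRF1-1 than with siUHRF1-2, and its ratio between the siRNAs, 0.264, was the lowest of all members. WNT16, a Wnt ligand, had 36.6 and 32.4 in the combination.

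Several members are known from neurons and endocrine cells. CHGA, the chromogranin of secretory granules, had 2.81 and 2.80 with siCONT + mock, 2.96 and 2.88 with siUHRF1 + mock, 4.87 and 2.74 with siCONT + TSA and 143 and 81.2 with siUHRF1 + TSA, and together with UCHL1 it made up the members in a list of 72 neuronal genes. BTBD17 had 3.47 and 3.37 with siCONT + mock, 3.52 and 3.36 with siUHRF1 + mock, 3.39 and 6.62 with siCONT + TSA and 144 and 109 with siUHRF1 + TSA. ASMT, which catalyses the last step of melatonin synthesis, had 3.52 and 3.46 with siCONT + mock, 6.24 and 7.88 with siUHRF1 + mock, 5.34 and 7.40 with siCONT + TSA and 95.3 and 72.1 with siUHRF1 + TSA. The array design places the ASMT probe on chromosome Y, but the gene lies in the pseudoautosomal region shared by X and Y. NKAIN1, which interacts with the sodium pump, had 51.1 and 61.7 in the combination, SLITRK4, a synaptic adhesion protein, had 54.8 and 49.0, and JPH4, a neuronal junctophilin, had 48.3 and 59.5. HTR3C, a serotonin receptor subunit, had 40.9 and 41.5 and PNMA2, a paraneoplastic antigen, had 44.7 and 47.8. The 2 SVOP probes, which read a synaptic vesicle protein, had lower combination signals of 37.9 and 29.7. All of these signals were under 10 elsewhere, as the rule requires.

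Genes of metabolism, epithelia and the matrix formed another group. MT1G, a metallothionein that binds zinc and copper, had 4.16 and 3.04 with siCONT + mock, 6.99 and 3.11 with siUHRF1 + mock, 2.72 and 2.92 with siCONT + TSA and 230 and 274 with siUHRF1 + TSA. FTCD, an enzyme of histidine breakdown in the liver, had 3.04 and 2.99 with siCONT + mock, 4.53 and 7.10 with siUHRF1 + mock, 8.40 and 5.38 with siCONT + TSA and 275 and 226 with siUHRF1 + TSA. Both were bright with either siRNA. GJA1, the gap junction protein connexin 43, had 3.30 and 3.24 with siCONT + mock, 3.40 and 3.35 with siUHRF1 + mock, 2.95 and 3.15 with siCONT + TSA and 99.6 and 231 with siUHRF1 + TSA. ITLN2, an intelectin lectin, had 3.28 and 3.24 with siCONT + mock, 3.41 and 5.00 with siUHRF1 + mock, 5.61 and 8.71 with siCONT + TSA and 60.8 and 78.8 with siUHRF1 + TSA. ATP4A, the catalytic subunit of the gastric proton pump, had 47.5 and 48.8 in the combination. The keratins KRT14 and KRT17, intermediate filament proteins of basal and stress-activated epidermis, had 42.6 and 40.7 and 34.3 and 28.7 and were the 2 members in a list of 145 keratins and keratin-associated proteins. TGM2, tissue transglutaminase, had 28.7 and 27.7, and SPP1, the matrix protein osteopontin, had 34.5 and 41.1. RDH12, a retinol dehydrogenase of the retina, had 39.0 and 52.7, and INMT, a methyltransferase of small amines, had 32.9 and 47.5.

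Other members are known from muscle or blood cells. KLHL40, a protein of the muscle sarcomere (listed by its older name KBTBD5), had 2.95 and 2.94 with siCONT + mock, 3.06 and 3.01 with siUHRF1 + mock, 9.53 and 4.90 with siCONT + TSA and 42.6 and 58.9 with siUHRF1 + TSA. MYBPC2, a myosin-binding protein and the only member in a list of 47 muscle contractile genes, had 28.5 and 30.0 in the combination. THY1, a surface glycoprotein of thymocytes, neurons and fibroblasts, had 7.26 and 3.75 with siCONT + mock, 3.91 and 3.83 with siUHRF1 + mock, 9.65 and 8.70 with siCONT + TSA and 46.0 and 47.7 with siUHRF1 + TSA. The exchange factor VAV1 had 70.6 and 36.9, the erythroid transcription factor NFE2 had 29.1 and 45.2, and the leukocyte receptor LILRA6 had 57.6 and 35.3. PTPRC and CD3E, which mark leukocytes, stayed at or near background on the same arrays, whereas CD79A was bright on every array (935 to 1376). The part of blood cells in these signals was not tested.

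The rest included RNAs that encode no known protein. BX648590 had 3.29 and 3.35 with siCONT + mock, 3.52 and 3.45 with siUHRF1 + mock, 3.01 and 3.27 with siCONT + TSA and 776 and 787 with siUHRF1 + TSA, with surrogate values on all 6 other arrays, and was at least 52.6-fold higher than in siCONT + mock. ECEL1P2 had 3.56 and 3.51 with siCONT + mock, 3.67 and 3.62 with siUHRF1 + mock, 3.15 and 3.38 with siCONT + TSA and 115 and 239 with siUHRF1 + TSA. LINC02159 (listed as LOC285629) had 3.53 and 3.49 with siCONT + mock, 3.65 and 3.58 with siUHRF1 + mock, 3.33 and 3.59 with siCONT + TSA and 77.0 and 172 with siUHRF1 + TSA. Both ECEL1P2 and LINC02159 were over 2-fold brighter with siUHRF1-2 than with siUHRF1-1. FAM90A7, of a repeated gene family on chromosome 8 and annotated as protein-coding, had 104 and 42.7 in the combination. LINC01116 was read by 2 members, 48 bases apart, with lower combination signals of 39.0 and 34.0, and LOC100506791 by 2 members that overlap and share sequence. Of the 90 probes, 66 matched a RefSeq gene by accession, 3 by symbol only and 21 did not match. Protein-coding genes were 60 members (66.7%, against 52.8% of all probes), long noncoding RNAs 6 (6.67% against 5.22%), pseudogenes 3 (3.33% against 2.10%) and probes without a RefSeq gene 21 (23.3% against 39.0%).

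The remaining members with symbols had lower combination signals between 25.3 and 40.5 and were not grouped. They are RCN3, APBB1IP, KIRREL2, PHKA2-AS1, ATP1B2, DDIT4L, DPYSL5, FAR2P1, H2BC21, PAEP, RADIL, ADORA2A-AS1, ASB2, PLK5, CAVIN3, CCDC85A, CHRFAM7A, BTG2-DT, MYO15A, ITGBL1 and GREB1, with THEM5 just below at 25.2. Of members known only by a locus, clone or transcript number, BX648590 aside, XLOC_004178 (54.0 and 109), LOC100506107 (52.1 and 78.0) and XLOC_003917 (52.1 and 88.4) were the brightest, all on chromosome 4, and the rest had lower combination signals between 25.2 and 39.6. These groups of members were formed after their values were seen.

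The values nearest the limits show how narrow the rule is for some probes. Just inside the limit of 25, the lower combination signal was 25.18 for THEM5, 25.19 for XLOC_l2_013295 and 25.25 for GREB1, and just outside it was 24.69 for ABCC8, 24.59 for XLOC_013754 and 24.50 for C8orf31. Just inside the limit of 10, the highest other signal was 9.97 for GREB1, 9.96 for IL13RA2 and 9.92 for CT45A1. Just outside it was 10.09 for OLFML2A, 10.10 for CHST6 and 10.11 for PLA2G4A. OLFML2A had 79.0 and 77.8 in the combination and was left out for a signal of 10.09 on the siUHRF1-1 + mock array.

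The rule required 25 or more with both siRNAs, so a signal with each was built in. Of the 90, 43 were brighter with siUHRF1-2 and 47 with siUHRF1-1, the median ratio was 0.969 and the ratios ran from 0.264 to 3.67. Within 2-fold were 76 (84.4%), against 96.3% of the 20724 probes with 25 or more on both combination arrays, most of which were far brighter. The members with the highest ratio of siUHRF1-2 to siUHRF1-1 were DDIT4L, an inhibitor of mTOR signalling (32.7 and 120), LOC283710 (38.2 and 105) and THEM5, a mitochondrial thioesterase (25.2 and 67.6). Those with the lowest were DKK1, FAM90A7 and FAR2P1, a pseudogene (74.0 and 30.4). With 1 array for each siRNA, these ratios have no replicate check.

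**Figure D3:**
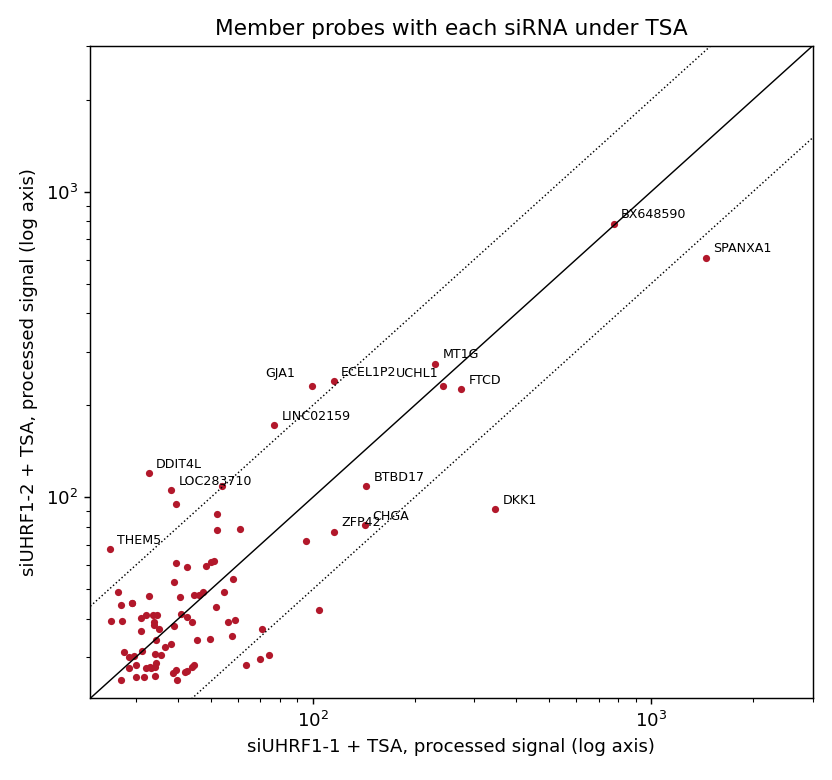
Processed signal of the 90 members with siUHRF1-1 + TSA (horizontal) and siUHRF1-2 + TSA (vertical), both on log axes, 1 point a probe, with the line of equality and dotted lines at 2-fold. Within the dotted lines lie 76 members, DKK1 lies farthest to the right of them and DDIT4L farthest above.

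Members lay on all autosomes but chromosome 18, and 1 probe had no position. Chromosome X held 13 members (14.4%, against 3.45% of all probes), chromosome 4 and chromosome 2 held 8 each (8.89%, against 4.46% and 7.75%), and chromosome 19 held 7 (7.78% against 4.83%). The X-linked members included SPANXA1, SPANXN4, CT45A1, IL13RA2, SLITRK4, FAM9B and BX648590. Member pairs of different genes within 500 kb were sought by the chromosome and position of the array design. They were KRT14 and KRT17 (36904 bases), DDX43 and KHDC1 (175016 bases) and ATP4A and KIRREL2 (316758 bases). Also found were ENST00000379435 and ENST00000444956 (114529 bases) and a pair of unnamed X-linked probes (290854 bases). ASMT, placed on chromosome Y, was therefore not compared with members placed on chromosome X, such as XLOC_007914.

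Probes of the same genes that the rule did not choose gave a measurement of their own. Of the 87 genes, 27 had a total of 40 other probes, and 60 had none. Not above background on any array were 20 of these 40, so the second probe often stayed dark where the member was lit. In contrast, 17 were well above background on both combination arrays, 5 of them only there, and 6 were on all 8 arrays. The question asked here was whether the other probes rose in the same comparisons. They were tested with limma over all probes with Benjamini-Hochberg adjustment, and a probe was called if its adjusted p was under 0.05 and its change 2-fold or more.

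After UHRF1 depletion plus TSA, against siCONT + mock, 11 of the 17 other probes that could be tested were called higher, and 0 lower. They stood for 10 genes. The same was true of 14.6% of all 23728 probes tested (11.0% were called lower), and the median change was 2.77 on the log2 scale for the other probes and -0.14 for all probes. The 17 passed the filter through the combination arrays, where their genes' members had been chosen as bright, so a high share was favoured and no test was made of it. With the siCONT arrays of each treatment counted as 1 sample, 10 of the 17 were called, against 2311 of all 23728 probes. Only 9 of the 11, from 8 genes, shared no 25 bases with a member, since the other probes of FTCD and ITGBL1 overlap the member itself.

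TGM2 had the strongest change among the other probes that share no sequence with their member. Its other probe gave 3.58 and 3.71 with siCONT + mock, 3.91 and 3.79 with siUHRF1 + mock, 110 and 97.5 with siCONT + TSA and 284 and 299 with siUHRF1 + TSA. It was already lit by TSA alone, unlike the member, and the change in the combination was 6.16 ± 0.14 (SE, limma adjusted p = 2.55e-05). The bound over siCONT + mock was at least 19.6-fold. CCDC85A gave 2.7 and 2.7 with siCONT + mock, 2.87 and 11.0 with siUHRF1 + mock, 11.5 and 10.2 with siCONT + TSA and 48.5 and 65.9 with siUHRF1 + TSA, which is at least 3.80-fold over siCONT + mock. LINC01116 gave 3.42 and 3.38 with siCONT + mock, 5.0 and 3.46 with siUHRF1 + mock, 14.7 and 8.83 with siCONT + TSA and 65.9 and 63.5 with siUHRF1 + TSA, at least 4.36-fold. APBB1IP, an adaptor that links Ras signalling to integrins, gave 3.29 and 3.24 with siCONT + mock, 3.4 and 3.32 with siUHRF1 + mock, 2.9 and 3.12 with siCONT + TSA and 23.8 and 35.6 with siUHRF1 + TSA, at least 1.96-fold. These probes of CCDC85A, LINC01116 and APBB1IP were well above background only in the combination. A second other probe of LINC01116, which shares sequence with a member, gave 48.3 and 45.1 in the combination but also 47.7 on the second siCONT + mock array against 3.54 on the first, and was not called (change 1.69 ± 1.26, limma adjusted p = 0.306).

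PRAME and CT45A1 show a different picture. Their other probes were well above background on all 8 arrays, whereas the member probe was dark on 6. For PRAME the other probe gave 27.5 and 21.6 with siCONT + mock, 36.1 and 34.5 with siUHRF1 + mock, 21.4 and 22.5 with siCONT + TSA and 72.7 and 72.6 with siUHRF1 + TSA, a change of 1.42 ± 0.18 in the combination (limma adjusted p = 0.00154). For CT45A1 it gave 52.1 and 53.0 with siCONT + mock, 76.5 and 45.3 with siUHRF1 + mock, 43.6 and 40.1 with siCONT + TSA and 117 and 127 with siUHRF1 + TSA, a change of 1.05 ± 0.16 (limma adjusted p = 0.00331), which was not called with the siCONT arrays as 1 sample (adjusted p = 0.0750). The combination was the highest group in both, and how many of all probes share this order was not counted. The CT45 genes are near-identical copies, and either probe may read several of them.

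Other probes of 3 further genes were lit on all arrays and were not higher in the combination by the test. KIRREL2, a nephrin relative, gave 164 and 150 with siCONT + mock, 195 and 182 with siUHRF1 + mock, 185 and 176 with siCONT + TSA and 160 and 212 with siUHRF1 + TSA, a change of 0.08 ± 0.16 (limma adjusted p = 0.718). LILRA6 gave 55.8 and 60.8 with siCONT + mock, 64.9 and 52.8 with siUHRF1 + mock, 50.5 and 56.5 with siCONT + TSA and 38.8 and 56.9 with siUHRF1 + TSA, a change of -0.47 ± 0.17 (limma adjusted p = 0.0600). H2BC21, a replication-type histone H2B gene listed as HIST2H2BE, gave 86.4 and 92.1 with siCONT + mock, 52.9 and 51.0 with siUHRF1 + mock, 29.1 and 32.4 with siCONT + TSA and 49.6 and 50.1 with siUHRF1 + TSA, a change of -0.998 ± 0.141 that was just short of 2-fold. For these genes the gene symbol does not describe a single on or off state, and which transcripts the probes read was not examined here. The other probe of PAEP, a secreted lipocalin, gave 35.5 and 26.0 with siCONT + mock, 27.4 and 19.4 with siUHRF1 + mock, 44.2 and 31.0 with siCONT + TSA and 91.9 and 47.1 with the combination. Its change in the combination was 0.96 ± 0.39 (limma adjusted p = 0.0878), which was not called. The other probe of DDIT4L gave 59.4 and 229 in the combination but 34.7 on the second siCONT + mock array against 3.15 on the first, and its change of 3.32 ± 1.21 had a limma adjusted p of 0.0640.

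**Figure D4:**
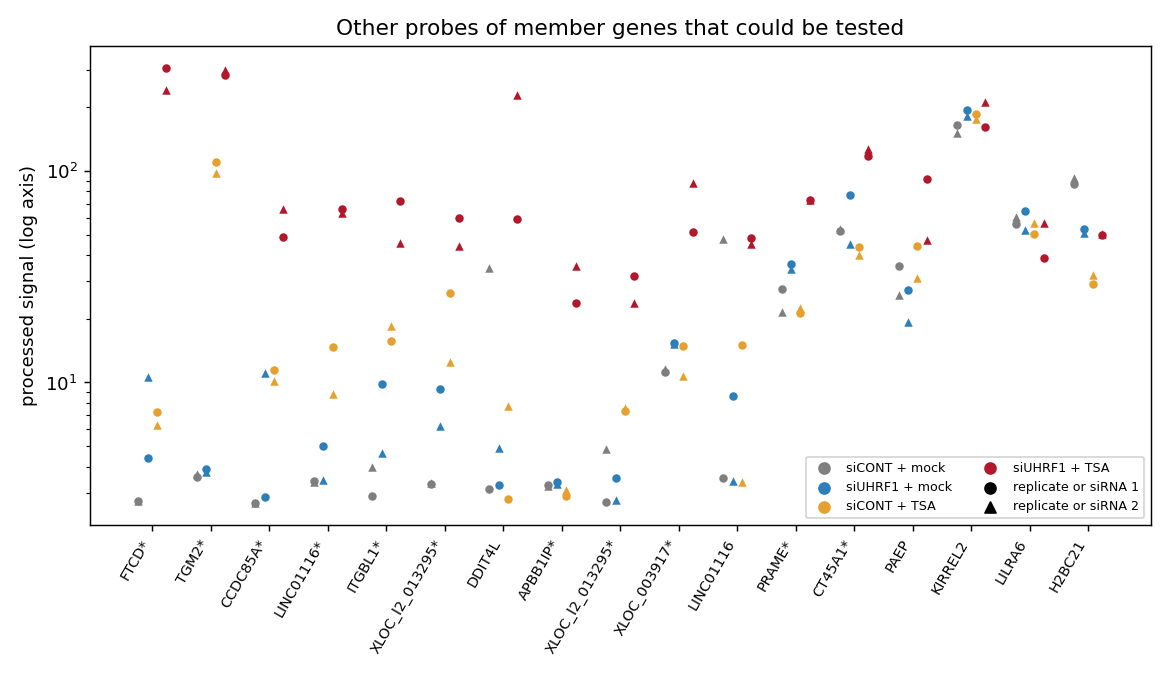
Processed signal (log axis) on the 8 arrays of the 17 other probes of member genes that could be tested, ordered by their change in the combination, with colour for the group and shape for the replicate or siRNA. An asterisk marks the 11 called higher. KIRREL2, LILRA6 and H2BC21 have similar or lower signals in the combination.

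UHRF1 depletion under mock called 0 of the 7 other probes tested higher (0 also at an unadjusted p under 0.05 and with siCONT as 1 sample), against 3.14% of all probes. H2BC21 was called lower, with a change of -1.04, and was not with siCONT as 1 sample (adjusted p = 0.376). TSA in siCONT cells called 2 of 8 higher, against 10.4% of all probes: TGM2 with a change of 4.56 and ITGBL1, an integrin-like protein, with 2.06. Both were not well above background with siCONT + mock and passed the filter only through the siCONT + TSA arrays. A call was therefore favoured for them, and no test was made of the share. Among probes detected on all arrays, 0 were called higher. With siCONT as 1 sample TGM2 alone was called higher. H2BC21 was called lower under TSA (-1.81 ± 0.14, limma adjusted p = 0.000645), with an adjusted p of 0.0703 with siCONT as 1 sample.

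The interaction asks whether the change by UHRF1 depletion under TSA exceeded that under mock. It was called higher for 9 of the 17 other probes, against 2.82% of all 24580 probes tested. Here too the probes passed the filter through the combination arrays, where their genes' members had been chosen as bright and elsewhere as dark. A high share was therefore favoured, and no test was made of it. With the siCONT arrays as 1 sample 0 were called among the other probes and 0 among all probes, although 11 of the 17 still had an unadjusted p under 0.05. The interaction calls therefore rest on counting the siCONT arrays separately. The spread between those arrays was small: the SD of the log2 difference was 0.164 and 0.156 between siCONT arrays, and 0.489 and 0.422 between the arrays of different siRNAs.

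Probes of other genes close to the members were read as a further measure that the rule did not use. Within 100000 bases of a member lay 525 probes of 400 other genes, of which 287 could be tested in the combination. Called higher were 69 (24.0%), against 14.6% of all probes, and lower 35 (12.2%), against 11.0%. Within 50000 bases 48 of 136 (35.3%) were higher and within 200000 bases 108 of 548 (19.7%). With siCONT as 1 sample 54 of the 287 were called higher, against 2311 of all 23728 probes. These neighbours lie in families and share loci, so they are not independent of each other. Without the MT1G locus the share was 20.1%, and without the MT1G and both keratin loci it was 18.6%.

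The neighbours called higher included relatives of the members. Beside MT1G were MT1H, MT1X, MT1B, MT1E, MT1A, MT1M, MT1F, MT2A and MT3, with changes between 1.76 and 3.53, although near-identical metallothioneins may share probes. Beside KRT14 and KRT17 were KRT9, KRT13, KRT15 and KRT16, with changes between 1.5 and 4.88. Beside ITLN2 was ITLN1 (5.24 ± 0.81) and beside DDX43 were OOEP (2.71) and KHDC3L (2.57), genes of the oocyte. KHDC3L and the member KHDC1, which lies in the same region, are of 1 gene family. Several of these relatives did not share the pattern of the members. ITLN1 gave 124 and 124 with siCONT + TSA against 126 and 289 with the combination, and KRT9 gave 179 and 151 against 147 and 279. A probe of MT1X gave 2513 and 2484 already with siCONT + mock. By contrast, OOEP (2.63 and 3.52), KHDC3L (5.08 and 2.65) and KRT16 (7.86 and 8.28) stayed under 10 with siCONT + TSA.

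Other neighbours were of other gene families. ALPP, placental alkaline phosphatase, has its probe 3225 bases from that of ECEL1P2 and gave 49.0 and 49.3 with siCONT + mock, 77.6 and 64.2 with siUHRF1 + mock, 2465 and 2487 with siCONT + TSA and 3134 and 5922 with siUHRF1 + TSA. DHRS2, a dehydrogenase, 77144 bases from JPH4, gave 3.42 and 3.37 with siCONT + mock, 24.2 and 15.5 with siUHRF1 + mock, 117 and 116 with siCONT + TSA and 1184 and 1462 with siUHRF1 + TSA. TRIML2, 86477 bases from ZFP42, gave 3.6 and 3.61 with siCONT + mock, 3.79 and 3.69 with siUHRF1 + mock, 174 and 191 with siCONT + TSA and 812 and 1160 with siUHRF1 + TSA. Unlike the members, these 3 were already lit by TSA alone, and their changes in the combination were 6.29 ± 0.25, 8.44 ± 0.15 and 7.91 ± 0.18 (limma adjusted p = 6.54e-05, 1.33e-05 and 2.55e-05). DHRS2 and TRIML2 were below the detection level with siCONT + mock, so the sizes of their changes depend on background values. The same holds for ITLN1, KRT9, KRT13, KRT16, OOEP and KHDC3L above. Under TSA in siCONT cells 46 of 273 tested neighbours were called higher, against 10.4% of all probes.

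The gene lists put the members beside genes of the same kinds. After leaving out the member probes, 34 of 77 cancer-testis probes tested were called higher in the combination and 7 lower, with a median change of 0.65 against -0.14 for all probes. The 34 still held the other probes of the member genes PRAME and CT45A1. Over all probes tested 14.6% were higher and 11.0% lower. SPANXB1 (9.06 and 8.88 on its probes), CTAG1A (6.82), PLAC1 (6.57) and XAGE1A (6.16) rose most, and each of these probes reached 10 or more on at least 1 array outside the combination. All were below the detection level with siCONT + mock, so these sizes depend on background values. CTAG1A, which encodes the antigen NY-ESO-1, gave 1403 and 573 already with siUHRF1 + mock. NUF2 and SPAG5, which act at the mitotic spindle, were among the 7 lower (-2.53 and -3.11). Of 32 meiosis and piRNA probes 12 were higher and 3 lower, of 29 probes of genes methylated in colorectal cancer 12 and 1, of 25 neuronal probes 10 and 0, and of 22 muscle contractile probes 15 and 2. Their median changes were 0.32, 1.33, 0.56 and 1.91. Of 59 keratin probes 15 were higher and 2 lower, with a median of 0.11. Lists that held 0 members were interferon-stimulated genes (11 of 37 higher, 3 lower), HOX genes (5 of 31 higher, 4 lower) and other developmental regulators (16 of 95 higher, 4 lower). The shares higher were 16.1% for HOX genes and 16.8% for developmental regulators, near that of all probes. With siCONT as 1 sample the higher counts were 26 cancer-testis, 11 meiosis, 9 methylated, 8 neuronal, 13 muscle, 12 keratin, 6 interferon, 3 HOX and 10 developmental probes, and 2311 of all 23728 probes.

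The promoters of the members were compared with those of all other genes on the array, as sequence was not used by the rule. Of the members, 44 genes had a promoter in the RefSeq table. A promoter was called CpG-island-like if its GC content was 50% or more and its ratio of observed to expected CpG 0.6 or more. This held for 17 member promoters (38.6%), against 63.6% of 15940 other genes. Among 9807 genes detected on all 8 arrays it held for 79.6%, and among 4050 genes not detected on any array for 33.4%. The median ratio was 0.49 for the members, 0.76 for the others, 0.84 for the genes always detected and 0.36 for the genes never detected. By these values the members lay nearer to the genes that were never detected, but this rested on the limits: for 193 genes taken by the detection flag in place of the limits, the share was 49.2% and the median ratio 0.60, nearer to all other genes. CpG content also differed with detection across the array, as the groups above show. No test was made of the difference between member promoters and others.

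**Figure D5:**
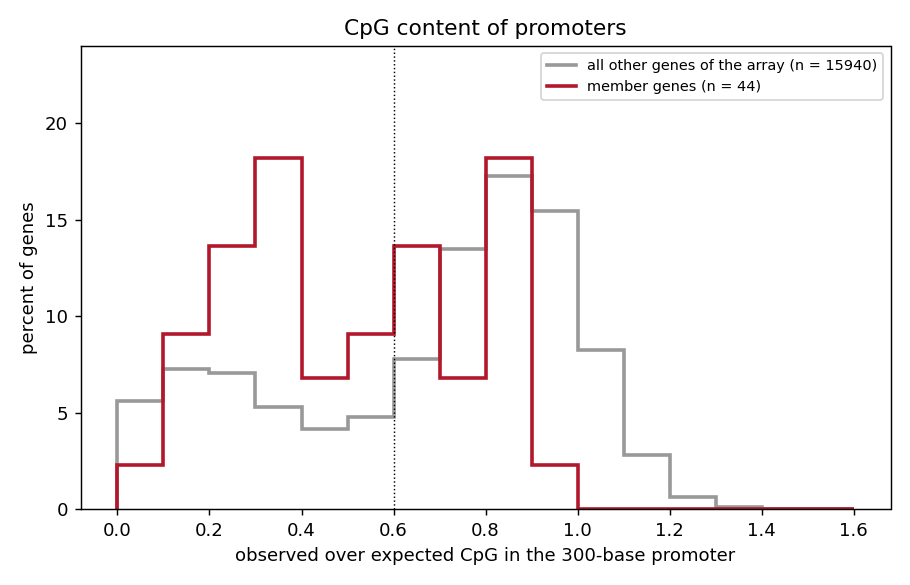
Percent of genes (vertical axis) by the ratio of observed to expected CpG in the 300-base promoter (horizontal axis) for 44 member genes and 15940 other genes of the array, with the limit of 0.6 dotted. The member genes are spread over low and high ratios, with a median of 0.49 against 0.76.

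The member promoters ran from rich to poor in CpG. RCN3, a calcium-binding protein of the endoplasmic reticulum, had the highest ratio, 0.95, followed by LINC01116 and UCHL1 (0.87 each). INMT had a ratio of 0.04. Motifs were searched on both strands in the same windows. TATAAA, the TATA box, was in 13.6% of member promoters and 9.42% of the others, TGACGTCA, the cAMP response element, in 2.27% and 2.59%, CACGTG, an E-box, in 6.82% and 8.83%, and GGGCGG, a GC box, in 56.8% and 58.4%. A match here is a stretch of letters and not a bound site.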

How the data were processed

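The authors deposited, per the file headers, the background-subtracted intensity of each spot (Agilent Feature Extraction 10.7.3.1) and a matrix of probe intensities, which equals it to within rounding and was used as an alternative. Spots of a probe were averaged. The selection used unscaled signals. For tests, log2 intensity minus the 75th percentile of its array was fitted with limma 3.58.1 in R 4.3.3 (4 group means, all 8 arrays, Benjamini-Hochberg). A probe was tested if both arrays of any group compared were well above background, and 20 probes with outlier spots were left out. Bounds used the lowest detected signal of each dim array. Gene names came from the array files and RefSeq, with 28388 of 50599 probes matched by accession and 2477 by symbol. Neighbours used hg19 positions of the array design. Python 3.11.15 was used otherwise. Steps were tested on simulated data. The members and lists were chosen with earlier results of these data known. Named members are the 25 brightest with a symbol, all in a fixed list, the 3 highest and lowest siRNA ratios and those nearest the limits, and others named were chosen after their values were seen. The values of 1 member are not reported here. Other probes called in the combination were named up to 10 by size. Alternatives were other limits, scalings, background correction, filters, leaving out each array, averaging the siCONT arrays, the methods' t-test, and, added later, other neighbour windows and sets. The number of arrays limits precision.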

Additional observations from a re-analysis of the deposited data

Results flagged for a closer look

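Other probes of member genes were noted because their change by UHRF1 depletion differed between TSA and mock in the interaction test (limma, Benjamini-Hochberg). The interaction on the log2 scale was 4.40 for FTCD, 3.61 for APBB1IP, 2.59 for LINC01116, 2.47 for XLOC_l2_013295, 2.37 for XLOC_003917, 1.85 for H2BC21, 1.79 for TGM2, 1.75 for CT45A1 and 1.57 for PRAME. For FTCD, APBB1IP, LINC01116 and XLOC_l2_013295 the probe was not well above background outside the combination, so the size depends on surrogate or near-background values. The TGM2 probe was not well above background in either mock group, nor was the XLOC_003917 probe with siCONT + mock. Their sizes therefore also depend on values near background. The H2BC21 probe gave 29.1 and 32.4 with siCONT + TSA and 49.6 and 50.1 with the combination, but 86.4 and 92.1 with siCONT + mock, so its interaction was positive while its change in the combination was -0.998. With the siCONT arrays of each treatment as 1 sample, 0 of these 9 passed (adjusted p between 0.201 and 0.420), and their cause was not tested.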

How the results depend on the processing

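The number of members depended on the limits and much less on scaling. It was 90 with the values of the series matrix, 91 without outlier spots, 108 after scaling each array to the mean 75th percentile (87 shared) and 65 after quantile normalization (62 shared). It was 20 with 50 in place of 25, 227 with 15, 29 with 5 in place of 10, and 428 with the well-above-background flag in place of both limits. Leaving out each array gave 92 to 222, with 222 without the siUHRF1-1 + TSA array and 198 without the siUHRF1-2 + TSA array. Island-like promoters made up 38.6%, and 49.2% with members taken by the flag, which moved them from nearer the genes never detected (33.4%) to nearer all other genes (63.6%).

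In the combination, 11 other probes of member genes were called higher in the main setting, 4 after normexp (3 shared), 2 among probes detected on all arrays, 7 by the methods' t-test with Benjamini-Hochberg, and 11 to 13 without an array. Over all probes 3453 were higher and 2620 lower. Normexp gave 1305 and 1336, the filter on all arrays 1595 higher, the t-test 1456 and 1259, siCONT as 1 sample 1346 lower, and the 75th percentile over detected probes 1641 lower. Without an array the ranges were 2942 to 3555 higher and 2331 to 2772 lower. The share of calls that were higher was 56.9%, 72.1% with the percentile over detected probes, which moved the median change from -0.14 to 0.10, and 41.1% among probes detected on all arrays.

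With TSA in siCONT, 2 other probes and 2408 probes in all were higher. The other probes were 1 after normexp, 4 without a filter, 0 among probes detected on all arrays and 1 with siCONT as 1 sample, and 2 to 4 without an array (4 without the second siCONT + TSA array). Over all probes the count was 870 after normexp, 1310 with the filter on all arrays, 293 with siCONT as 1 sample, and 1730 to 2543 without an array. With UHRF1 depletion under mock, 702 probes were higher, 222 after normexp, 300 without a filter, 425 with the filter on all arrays, 5 with siCONT as 1 sample, 0 by the t-test with Benjamini-Hochberg (545 unadjusted) and 144 to 1480 without an array (144, 158, 268 and 248 without a siCONT array, 1480 without siUHRF1-1 + mock). Other probes called were 0 throughout.

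The interaction was called for 694 probes, 417 after normexp, 177 without a filter, 405 with the replicate block, 0 with siCONT as 1 sample and 108 to 1513 without an array. For other probes of member genes it was 9, 2 without a filter, 3 with the filter on all arrays, 0 with siCONT as 1 sample and 1 to 11 without an array. It fell to 2 or 1 without any siCONT array and to 5 without the siUHRF1-1 + TSA array. The methods' t-test has no interaction. Arrays with the same number shared a deviation for the siUHRF1 pair (r = 0.337, same siRNA) and not otherwise (r between -0.056 and 0.074), and the block moved no other count by over 1.5 times. Causes were not tested, except that stricter filters and averaging leave fewer probes or samples. Members near background are limited by the signal over background.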
